A study of Mus musculus with 8 samples.

Results

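Monocytes were 2345 of the 22441 CD45+ cells that were sequenced from grafts of NIT-1 cells, an insulin-secreting cell line of NOD mouse origin. They were the cells that the authors' deposited annotation calls Monocyte, in all 4 libraries, and they were spread over 2 of the authors' clusters, cluster 1 with 1799 cells and cluster 14 with 546. WT and Rnls mutant NIT-1 cells had been grafted under the skin of opposite flanks of NOD.scid mice, which lack T and B cells of their own and keep their myeloid cells, and all recipients had received diabetogenic NOD splenocytes intravenously. Living CD45+ cells were sorted from the grafts 10 or 17 days after the transfer. The groups were WT day 10 (1177 Monocytes), Rnls mutant day 10 (918), WT day 17 (132) and Rnls mutant day 17 (118), each with 4 grafts that were hashed and pooled into 1 droplet library. Each group was thus 1 library, and group and library cannot be told apart. The mutation is carried by the grafted beta cells and not by the Monocytes, so the level of Rnls in Monocytes checks no label.

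Monocytes are made in the bone marrow and reach inflamed tissue through the blood. Classical monocytes, high in Ly6c2 and in the chemokine receptor Ccr2, enter tissue and can become macrophages or antigen-presenting cells, whereas nonclassical monocytes, low in Ly6c2, depend on the transcription factor Nr4a1 and patrol the vessel wall. Around islets, monocytes and macrophages present antigen to T cells and respond to the interferon gamma that T cells release.

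Monocytes gave 11680772 UMIs in all and a median of 4530 UMIs per cell, against 4719 in Macrophages (7179 cells), and the median was 5088 in cluster 1 and 2847 in cluster 14. UMIs were summed per graft, and the 15 grafts with 10 or more Monocytes were compared, which left out graft 2 of WT day 17 with 7 cells. The grafts of day 10 held 168 to 400 Monocytes each and those of day 17 held 10 to 91, so values of day 17 rest on few cells. Levels are given as CPM, the UMIs of a gene in 1000000 UMIs of the Monocytes of that graft. Markers of other cell types were low: the summed level of 12 lymphocyte markers was 27.9 to 51.9 CPM in Rnls mutant day 10, 32.2 to 42.2 in WT day 10, 0 to 9.76 in Rnls mutant day 17 and 0 to 19.2 in WT day 17, with Cd79a at 0 in every group. The 11 granulocyte markers summed to 0 to 156 CPM and the 6 dendritic markers to 0 to 71.5 CPM over the 4 groups, with the granulocyte gene Ngp and the dendritic gene Siglech at 0 throughout, and the 6 beta cell markers did not exceed 0.997 CPM. Cells with 2 or more UMIs of the lymphocyte markers were 1.62% of Monocytes and 1.82% of Macrophages. Of the 42 barcodes found in more than 1 library, 5 belonged to a Monocyte and none to a pair of Monocytes.

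The annotated identity was checked against 3 markers. Lyz2 (chr10:117277331-117282321, minus strand in GRCm38), which codes for lysozyme of myeloid cells, was at 9537, 12536, 8844 and 10942 CPM in the WT grafts of day 10, 6795, 8250.3, 11205 and 8289 in the Rnls mutant grafts of day 10, 8288, 16611 and 14320.2 in the WT grafts of day 17 and 8874, 7846, 9329 and 7253 in the Rnls mutant grafts of day 17. The 4 groups overlapped. Ly6c2 (chr15:75108158-75111970, minus strand), the surface antigen that marks classical monocytes, was at 673, 494, 707 and 380.2 CPM in the WT grafts of day 10, 572, 747, 434 and 585 in the Rnls mutant grafts of day 10, 188, 383 and 1001 in the WT grafts of day 17 and 253, 194, 468 and 48.7 in the Rnls mutant grafts of day 17. The highest WT graft of day 17, graft 4, lay above every graft of day 10, and the lowest value came from a Rnls mutant graft of day 17 with 16 cells. Ccr2 (chr9:124101950-124113557, plus strand), the receptor for Ccl2 that guides monocytes into tissue, was at 193, 284, 328 and 297 CPM in the WT grafts of day 10, 193, 242, 267 and 243 in the Rnls mutant grafts of day 10, 262, 375 and 894 in the WT grafts of day 17 and 411, 204, 400.1 and 97.4 in the Rnls mutant grafts of day 17, again with overlapping groups. Reads of Ly6c2 and of its near-identical neighbor Ly6c1 may be split by the counting, so its level is uncertain to that extent. Pooled over all libraries, Ly6c2 stood at 532 CPM in Monocytes, 164 in Macrophages, 127 in dendritic cells and 22.8 in granulocytes, and Lyz2 at 9805 in Monocytes, 13839 in Macrophages, 690 in dendritic cells and 2211 in granulocytes. Ccr2 stood at 271 CPM in Monocytes, 215 in Macrophages, 154 in dendritic cells and 7.01 in granulocytes. In lymphocytes Ccr2 was at 584 CPM in regulatory T cells, 320 in CD8 T cells, 266 in CD4 T cells and 247 in NK cells. Ccr2 thus did not set Monocytes apart from all other CD45+ cells.

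Within the same 15 grafts, Monocytes were set beside Macrophages as the median of the per-graft log2 ratio of CPM, with 5 CPM added to each value. The cell types had been called on these same genes, so the ratios describe the classes and were not tested. Ly6c2 was higher in Monocytes in 15 of 15 grafts (median log2 ratio 1.34) and Ccr2 in 13 of 15 (0.93), whereas Lyz2 was higher in 4 of 15 (-0.23) and did not separate the classes. Of 3321 genes at 50 CPM or more in at least one class, 41 were 2-fold or more higher in Monocytes by the median and higher in every graft, and 82 were lower by the same rule. Among the largest ratios in favor of Monocytes were those of the adhesion receptor Adgre4 (2.56), the matrix proteoglycan Vcan (2.31), Heg1 (2.29), the interferon-induced Ifitm6 (2.21), Cd300ld (1.96) and Pecam1 (1.91). Plac8, which is abundant in blood monocytes, had a log2 ratio of 1.77, with 882 to 3701 CPM in Monocytes and 133 to 1078 CPM in Macrophages. In the other direction stood Retnla (-6.17), the complement genes C1qa (-4.64), C1qc (-4.23) and C1qb (-3.91), the lipid carrier Apoe (-4.60), the chemokines Ccl8 (-4.42) and Pf4 (-4.06), the elastase Mmp12 (-3.84) and Ms4a7 (-3.68), most of them known from tissue macrophages. C1qa was at 17.9 to 206 CPM in Monocytes and 720.2 to 3749 CPM in Macrophages, with no overlap.

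By list, 5 of 13 classical monocyte genes were higher in Monocytes in every graft and none was lower in every graft (median log2 ratio 1.09, against 0.094 over all 3321 genes). With no 2-fold minimum, 221 of the 3321 genes were higher in every graft and 152 were lower. List members were counted at any level and the 3321 genes only at 50 CPM or more, so the 2 are not fully alike. Among 15 nonclassical genes, 2 were higher in every graft and none lower (median 1.41). Of 16 macrophage genes, none was higher and 9 were lower in every graft (median -2.39). Of 14 chemokines, 5 were lower in every graft (median -1.79), and of 15 immediate early genes 7 were (median -0.89). Among 21 interferon gamma response genes, 5 were higher in every graft, with Gbp2, a guanylate-binding GTPase, at a log2 ratio of 1.30 in 15 of 15 grafts. Among 8 genes of MHC class II, H2-Aa alone was lower in every graft, with a log2 ratio of -0.78 and higher in 0 of 15 grafts. F13a1, which is listed with the classical genes and codes for coagulation factor XIII, went the other way from most of its list with -1.90.

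**Figure D1:**
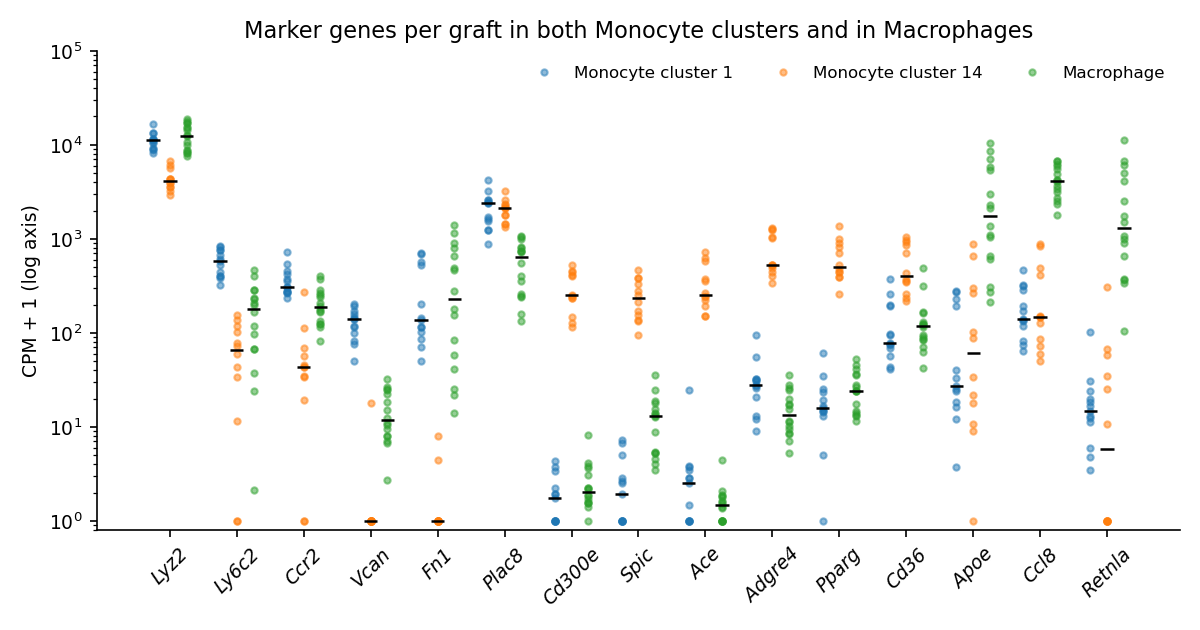
Level of 15 genes in cluster 1, cluster 14 and Macrophages, in CPM with 1 added, on a log axis, with 1 point per graft of 10 or more cells and a black line at the median. Vcan, Fn1, Ly6c2 and Ccr2 sat higher in cluster 1, and Cd300e, Spic, Ace, Adgre4, Pparg and Cd36 in cluster 14, while Apoe, Ccl8 and Retnla were highest in Macrophages.

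Both clusters of Monocytes were then set beside each other. In 11 grafts with 10 or more cells of each, 252 of 3553 genes were 2-fold or more higher in cluster 14 by the median and higher in every graft, and 184 were lower by the same rule. These genes took part in the clustering, so the contrast is a description with no test. The leading genes of cluster 14 were Cd300e, an activating receptor of nonclassical monocytes, with 116 to 526 CPM in cluster 14 and 0 to 3.34 CPM in cluster 1 (median log2 ratio 5.35), the transcription factor Spic with 94.5 to 470.0 CPM in cluster 14 and 0 to 6.19 CPM in cluster 1 (5.19) and the peptidase Ace with 148 to 718 CPM in cluster 14 and 0 to 23.4 CPM in cluster 1 (5.15). The ranges of these genes did not overlap between clusters. Next came Eno3 (4.73), Slc12a2 (4.27), the nuclear receptor Pparg (4.27, 255 to 1380.4 CPM in cluster 14 and 0 to 60.0 CPM in cluster 1), Pecam1 (4.25), Treml4 (4.07), Adgre4 (3.92) and the fatty acid binding protein Fabp4 (3.89). Nr4a1, which nonclassical monocytes need, had a log2 ratio of 2.60, and the fatty acid receptor Cd36 one of 2.28. Of 15 genes of the nonclassical list, 12 were higher in cluster 14 in every graft and none was lower (median log2 ratio 3.16, against -0.0091 over all genes). With no 2-fold minimum, 395 of the 3553 genes were higher in every graft and 389 were lower. Here too list members were counted at any level and the 3553 genes only at 50 CPM or more.

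Cluster 1 led with Vcan (log2 ratio of cluster 14 over cluster 1 -4.86), the chemokine receptor Ccr1 (-4.85), fibronectin Fn1 (-4.81), F13a1 (-3.86), the mannose receptor Mrc1 (-3.56) and the interferon gamma-induced chemokine Cxcl9 (-3.33, 0 to 263 CPM in cluster 14 and 620.4 to 3180.2 CPM in cluster 1). All 3 markers were lower in cluster 14 in every graft: Lyz2 by a log2 ratio of -1.31, Ly6c2 by -3.11 with 0 to 155 CPM in cluster 14 and 322 to 836 CPM in cluster 1, and Ccr2 by -2.66. Ly6c2 and Ccr2 thus marked cluster 1, and cluster 14 went against the classical label in both. Of the 13 classical genes 7 were lower in cluster 14 in every graft (median -2.37), of 8 MHC class II genes 7 (median -1.18), of 24 glycolysis and hypoxia genes 10 (median -0.71) and of 20 type I interferon genes 5 (median -1.11), and none of these lists had a member higher in every graft. Of all 3553 genes, 389 were lower in every graft. Among MHC class II genes the ratio was -1.13 for H2-Aa, -0.80 for the invariant chain Cd74, -1.34 for the master regulator Ciita and -1.64 for the peptide loader H2-DMb1. Plac8 (-0.20) and the cytokine Tgfb1 (0.026) differed little. The cytokine gene Il1b was higher in cluster 14 in 10 of 11 grafts (1.12), as were Cd274, which codes for the checkpoint ligand PD-L1 (0.92), and the growth factor receptor Csf1r (0.93).

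Monocytes took a much smaller share of the CD45+ cells at day 17. They were 12.5, 12.5, 15.6 and 21.4% of the CD45+ cells in the WT grafts of day 10, 14.8, 16.6, 10.3 and 13.7% in the Rnls mutant grafts of day 10, 10.4, 2.00, 2.16 and 2.83% in the WT grafts of day 17 and 1.81, 2.40, 2.03 and 2.93% in the Rnls mutant grafts of day 17. Only graft 1 of WT day 17 reached the lowest grafts of day 10. The means were 15.5% ± 4.22 (SD, n = 4), 13.8% ± 2.65, 4.35% ± 4.05 and 2.29% ± 0.489 in that order. Over both genotypes the share fell by 11.4 percentage points from day 10 to day 17, with a two-sided exact permutation p = 0.000408, the smallest that 4900 assignments allow, and an adjusted p of 0.00245 over 6 tests. Within WT grafts alone it fell by 11.1 points and within Rnls mutant grafts alone by 11.6 points, each with an exact p = 0.0286, the smallest that 70 assignments allow, and an adjusted p of 0.0571.

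Macrophages took a larger share in every graft of day 17 than in any graft of day 10. They were 25.8, 14.8, 15.7 and 11.7% of CD45+ cells in WT day 10, 26.9, 19.5, 7.41 and 9.84% in Rnls mutant day 10, 29.9, 30.6, 79.6 and 55.5% in WT day 17 and 61.0, 65.5, 60.4 and 57.7% in Rnls mutant day 17. Set against Macrophages, there were 48.4, 84.2, 99.0 and 183 Monocytes per 100 Macrophages in WT day 10, 55.1, 84.8, 139 and 139 in Rnls mutant day 10, 34.7, 6.54, 2.71 and 5.10 in WT day 17 and 2.97, 3.67, 3.36 and 5.08 in Rnls mutant day 17. By this ratio too, every graft of day 10 lay above every graft of day 17. The share of Monocytes also fell among myeloid cells alone, by 32.6 points, and among cells other than T and NK cells, by 27.8 points, each with an exact permutation p = 0.000408 over both genotypes. Cells were counted as shares of the sorted cells, so a fall in the number of Monocytes and a rise in other cells cannot be told apart.

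Genotype did not separate the shares. The difference, Rnls mutant minus WT, was -1.65 percentage points at day 10 (exact permutation p = 0.629, adjusted p = 0.629), -2.05 at day 17 (p = 0.486, adjusted p = 0.583) and -1.85 over both days (p = 0.289, adjusted p = 0.433), and the ranges of the genotypes overlapped at both days. Leaving out 1 graft at a time gave -2.36 to -0.842 points over both days.

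The mix of the clusters varied between grafts, also within one library. Cluster 14 made up 35.0, 13.5, 12.4 and 9.75% of the Monocytes in the WT grafts of day 10, 44.1, 17.5, 5.36 and 20.6% in the Rnls mutant grafts of day 10, 76.9, 71.4, 0 and 20.0% in the WT grafts of day 17 and 40.0, 69.2, 42.9 and 68.8% in the Rnls mutant grafts of day 17. In the Rnls mutant grafts of day 17 it was never under 40.0%, whereas in WT day 17 it ranged from none of the 24 cells of graft 3 to 76.9% of the 91 cells of graft 1. Because the clusters were drawn with the genes that differ between days, these shares were not tested. Counts of changed genes and the changes of the main genes are therefore given also for cluster 1 alone, in which 4, 4, 2 and 3 grafts of WT day 10, Rnls mutant day 10, WT day 17 and Rnls mutant day 17 held 10 or more cells.

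**Figure D2:**
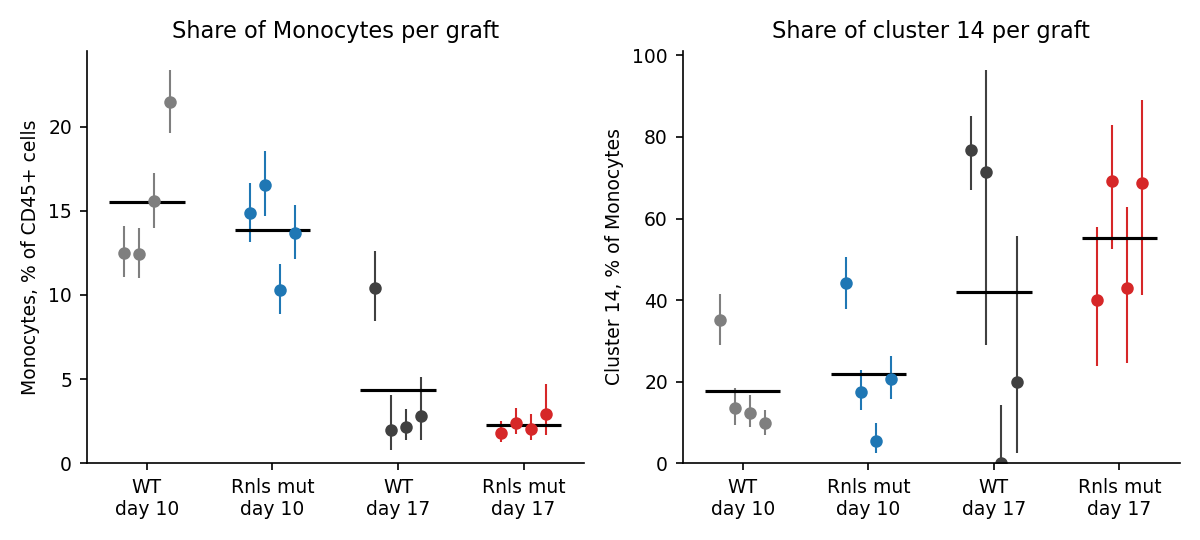
Left, Monocytes as a percent of CD45+ cells. Right, cluster 14 as a percent of Monocytes. Each point is 1 of 4 grafts per group with its 95% exact binomial interval, which covers counting error only, and each line is the group mean. The day 17 grafts sit at 1.81% to 2.93% of CD45+ cells, except graft 1 of WT day 17 at 10.4%, and WT graft 3 of day 17 holds no cell of cluster 14.

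Between day 10 and day 17, expression was compared with edgeR's quasi-likelihood test on the summed UMIs of 15 grafts, with changes given as log2 fold changes ± standard error and p-values adjusted over all genes by the Benjamini-Hochberg method. Averaged over both genotypes, 511 of 8092 genes (6.31%) were higher at day 17 and 656 (8.11%) were lower at an adjusted p of 0.05, with a median log2 change of -0.060 over all genes tested. Within cluster 1 alone 68 of 8095 genes (0.84%) were higher and 203 (2.51%) were lower. Of the 511 genes that were higher, 92.0% also had a higher level in cluster 14 than in cluster 1, and 58 passed in cluster 1 alone. Of the 656 that were lower, 12.3% were higher in cluster 14, against 43.2% of all genes, and 180 passed in cluster 1 alone. Of those tested in cluster 1, 451 of 477 higher genes (median 0.56, against 1.03 over both clusters) and 654 of 654 lower genes (-0.73, against -0.86) kept their sign. Cells of cluster 1 are part of both sums, so this is no separate check. The fit of cluster 1 had fewer cells and only 2 grafts of WT day 17, and how far that lowered its counts was not tested. In graft 1 of WT day 17 cluster 14 made up 76.9% of the Monocytes, and without this graft 102 genes were higher and 344 lower. Graft 3 of WT day 17 held no cell of cluster 14, and without it 781 were higher and 1186 lower. By genotype, 311 genes passed in WT grafts (36 to 1299 with 1 graft left out, 22 with the 2 groups fitted alone) and 258 in Rnls mutant grafts (83 to 602, and 530), so the genotypes have no order by these counts. In Rnls mutant grafts, 76 of 8095 genes passed in cluster 1 alone and 275 of 2728 in cluster 14 alone.

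Genes of heat shock protein families and their co-chaperones, whose products fold proteins, were among those that fell with the smallest p. They are called heat shock genes here by family, which states no shared regulator. Hspa1a (chr17:34969190-34972156, minus strand), a stress-inducible Hsp70 chaperone, was at 952, 1329, 744 and 1312 CPM in the WT grafts of day 10, 2509.9, 1998, 1557 and 892 in the Rnls mutant grafts of day 10, 2.41, 40.3 and 215 in the WT grafts of day 17 and 15.8, 117, 78.1 and 341 in the Rnls mutant grafts of day 17. Every graft of day 17 lay below every graft of day 10, and the log2 fold change was -4.58 ± 0.46, adjusted p = 1.49e-06. Dnaja1 (chr4:40722150-40737149, plus strand), a co-chaperone of Hsp70, was at 2256, 3259, 2315 and 3745 CPM in the WT grafts of day 10, 3440.3, 3461, 2708 and 2143 in the Rnls mutant grafts of day 10, 296, 213 and 644 in the WT grafts of day 17 and 284, 359.7, 254 and 292 in the Rnls mutant grafts of day 17. Its groups did not overlap between days either, with -3.37 ± 0.20, adjusted p = 7.38e-10, the smallest p of all genes. The other heat shock genes among the 10 with the smallest p that fell were Hsph1 (-4.17 ± 0.34), which exchanges the nucleotide of Hsp70, the cytosolic Hsp90 genes Hsp90aa1 (-2.96 ± 0.21) and Hsp90ab1 (-1.72 ± 0.14), the mitochondrial chaperonin pair Hspd1 (-2.93 ± 0.24) and Hspe1 (-2.57 ± 0.23), and Hspa5 of the endoplasmic reticulum (-1.80 ± 0.15), all with an adjusted p of 1.74e-07 or less. Hspa1b, a near-identical copy of Hspa1a whose reads may be split between the copies, was at 398 to 1431 CPM at day 10 and 0 to 146 CPM at day 17 (-4.54 ± 0.48, adjusted p = 2.98e-06). Dnajb1 (-2.36 ± 0.29, adjusted p = 2.28e-05) and Hspa8 (-1.40 ± 0.16, adjusted p = 7.34e-06), chosen after their values were seen, fell as well.

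The fall of the heat shock genes was present in both clusters and in both genotypes. In cluster 1 alone it was -5.20 ± 0.42 for Hspa1a, -6.09 ± 0.55 for Hspa1b, -3.45 ± 0.21 for Dnaja1 and -4.21 ± 0.46 for Hsph1. In cluster 14 alone, which could be compared only in Rnls mutant grafts, it was -4.55 ± 0.33 for Hspa1a, -4.31 ± 0.23 for Dnaja1 and -5.00 ± 0.51 for Hsph1. The change in WT grafts was -4.92 ± 0.70 for Hspa1a and -3.28 ± 0.29 for Dnaja1, and in Rnls mutant grafts -4.23 ± 0.58 and -3.47 ± 0.27. Beyond Monocytes, 10 of 12 heat shock genes, Hspa1a, Hspa1b, Hsph1, Dnajb1, Hsp90aa1, Hsp90ab1, Hspa8, Hspd1, Hspe1 and Hspa5, were lower at day 17 than at day 10, untested, in Macrophages, dendritic cells, granulocytes, CD4 T cells, CD8 T cells, regulatory T cells, NK cells and cycling cells of each genotype. The 12 genes were chosen after their values were seen, and the share of all genes that were lower by this rule was not computed. The count is therefore a description of these genes only. Hspa1a in CD8 T cells, for instance, was at 208 CPM in WT day 10 and 4.17 in WT day 17. Dnaja1 was lower in all of these but the granulocytes of Rnls mutant grafts (394 CPM at day 10 and 459 at day 17), and Bag3 was not lower in CD8 T cells, regulatory T cells or granulocytes, where it did not exceed 20.1 CPM. No library held both days, so day, sort and library cannot be told apart.

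The promoters of Hspa1a and Hspa1b are shown because both copies fell together, and they were searched for the element that heat shock factors bind. The 250 bases before each RefSeq start site are from GRCm38.p6, chr17:34972157-34972406 and chr17:34959239-34959488, both read 5′ to 3′ on the minus strand, with capitals for a match to the heat shock element GAANNTTC or its reverse complement TTCNNGAA.
Hspa1a: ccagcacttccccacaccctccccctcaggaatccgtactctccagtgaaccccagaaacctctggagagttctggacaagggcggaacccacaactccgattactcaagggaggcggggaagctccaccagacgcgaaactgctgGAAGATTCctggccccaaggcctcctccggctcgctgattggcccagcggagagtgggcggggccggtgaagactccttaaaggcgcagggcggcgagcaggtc
Hspa1b: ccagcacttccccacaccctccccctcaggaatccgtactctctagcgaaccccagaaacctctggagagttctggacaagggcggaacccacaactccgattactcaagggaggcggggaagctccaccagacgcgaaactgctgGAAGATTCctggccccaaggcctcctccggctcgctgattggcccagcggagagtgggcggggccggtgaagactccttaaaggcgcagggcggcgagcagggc
Both windows agreed at 247 of 250 bases (98.8%), and the match began 104 bases before the start site in each. The element was found in the promoter windows of 6 of the 9 heat shock genes with a RefSeq entry (66.7%, of 12 listed), namely Dnaja1, Hspa1a, Hspa1b, Hspd1, Hspe1 and Hsph1, and in those of 3932 of 27025 genes (14.5%) in the whole table. Hspa5, Dnajb1 and Bag3 held no match. A match describes the letters of the window and was not tested as a binding site.

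Genes induced by type I interferon also fell. Isg15 (chr4:156199424-156200818, minus strand), a ubiquitin-like protein that interferon induces, was at 916, 503, 721 and 255 CPM in the WT grafts of day 10, 700.0, 616, 520.5 and 706 in the Rnls mutant grafts of day 10, 111, 125 and 215 in the WT grafts of day 17 and 205, 87.5, 137 and 243 in the Rnls mutant grafts of day 17. Every graft of day 17 lay below every graft of day 10, the lowest of which was graft 4 of WT day 10, and the log2 fold change was -2.24 ± 0.25, adjusted p = 8.08e-06. Oasl1 (chr5:114923240-114937915, plus strand), an antiviral protein that restrains translation of Irf7, was at 309.8, 227, 207 and 135 CPM in the WT grafts of day 10, 249, 288, 229.9 and 230.2 in the Rnls mutant grafts of day 10, 16.8, 20.1 and 0 in the WT grafts of day 17 and 31.6, 19.4, 48.8 and 48.7 in the Rnls mutant grafts of day 17. Its groups did not overlap between days, with -3.43 ± 0.27, adjusted p = 4.76e-08. Of 19 type I interferon genes tested, 13 fell and none rose (median log2 fold change -1.32, against -0.060 over all genes), and without graft 1 of WT day 17 8 fell. Over all genes 8.11% fell, and 344 of 8535 without that graft. Among them were the transcription factor Irf7 (-1.61 ± 0.26, adjusted p = 3.79e-04), the tetherin gene Bst2 (-1.19 ± 0.20, adjusted p = 7.39e-04) and Ifit2 (-2.50 ± 0.52, adjusted p = 0.00328), which binds viral RNA. Ifitm3 (-0.042 ± 0.11, adjusted p = 0.847) and Ly6e (-0.20 ± 0.11, adjusted p = 0.234) did not pass. In cluster 1 alone 5 of the 19 fell, against 2.51% of all genes, with -2.19 ± 0.31, adjusted p = 3.25e-04 for Isg15 and -2.88 ± 0.33, adjusted p = 1.23e-05 for Oasl1. Type I interferon genes were lower in cluster 14 than in cluster 1, and the share of cluster 14 was higher in most grafts of day 17, so the count in cluster 1 alone stands beside that of both clusters. Isg15 was also lower at day 17, untested, in Macrophages, dendritic cells, granulocytes, T cells, NK cells and cycling cells of each genotype. In CD8 T cells it was at 184 CPM in WT day 10 and 110 in WT day 17. Oasl1 was lower in Macrophages, dendritic cells, granulocytes and NK cells of each genotype. In T cells and cycling cells it was at 10.1 CPM or less. Day and library cannot be told apart here either.

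Promoters of Isg15 and Ifit1 are shown as examples of this list with more than 1 match to the interferon-stimulated response element, searched as TTTC, any 2 bases and TTTC on either strand. The 250 bases before the RefSeq start site in GRCm38.p6 are chr4:156200819-156201068 on the minus strand and chr19:34640639-34640888 on the plus strand, read 5′ to 3′, with capitals for the matches.
Isg15: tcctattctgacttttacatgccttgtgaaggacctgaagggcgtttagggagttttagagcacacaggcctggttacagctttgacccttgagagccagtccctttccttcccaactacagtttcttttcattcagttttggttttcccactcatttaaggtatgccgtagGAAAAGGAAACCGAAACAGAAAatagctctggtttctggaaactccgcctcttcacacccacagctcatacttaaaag
Ifit1: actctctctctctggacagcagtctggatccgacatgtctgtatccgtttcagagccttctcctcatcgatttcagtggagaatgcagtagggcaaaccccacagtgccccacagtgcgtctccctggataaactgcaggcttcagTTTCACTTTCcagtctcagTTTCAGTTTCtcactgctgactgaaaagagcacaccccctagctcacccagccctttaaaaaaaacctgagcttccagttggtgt
In Isg15 3 matches overlapped each other, beginning 78, 72 and 66 bases before the start site, and in Ifit1 the 2 matches began 104 and 85 bases before it. Of 17 listed genes with a RefSeq entry, 8 held the element (47.1%), namely Bst2, Ifit1, Ifit3, Ifit3b, Isg15, Oas1a, Rsad2 and Stat2, and so did 936 of 27025 genes in all (3.46%). Oasl1, Irf7 and Ifit2 held no match, which says only that these letters are not in their windows. Of the 10 genes that rose with the smallest p, 1 held this element and 2 held the heat shock element.

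**Figure D3:**
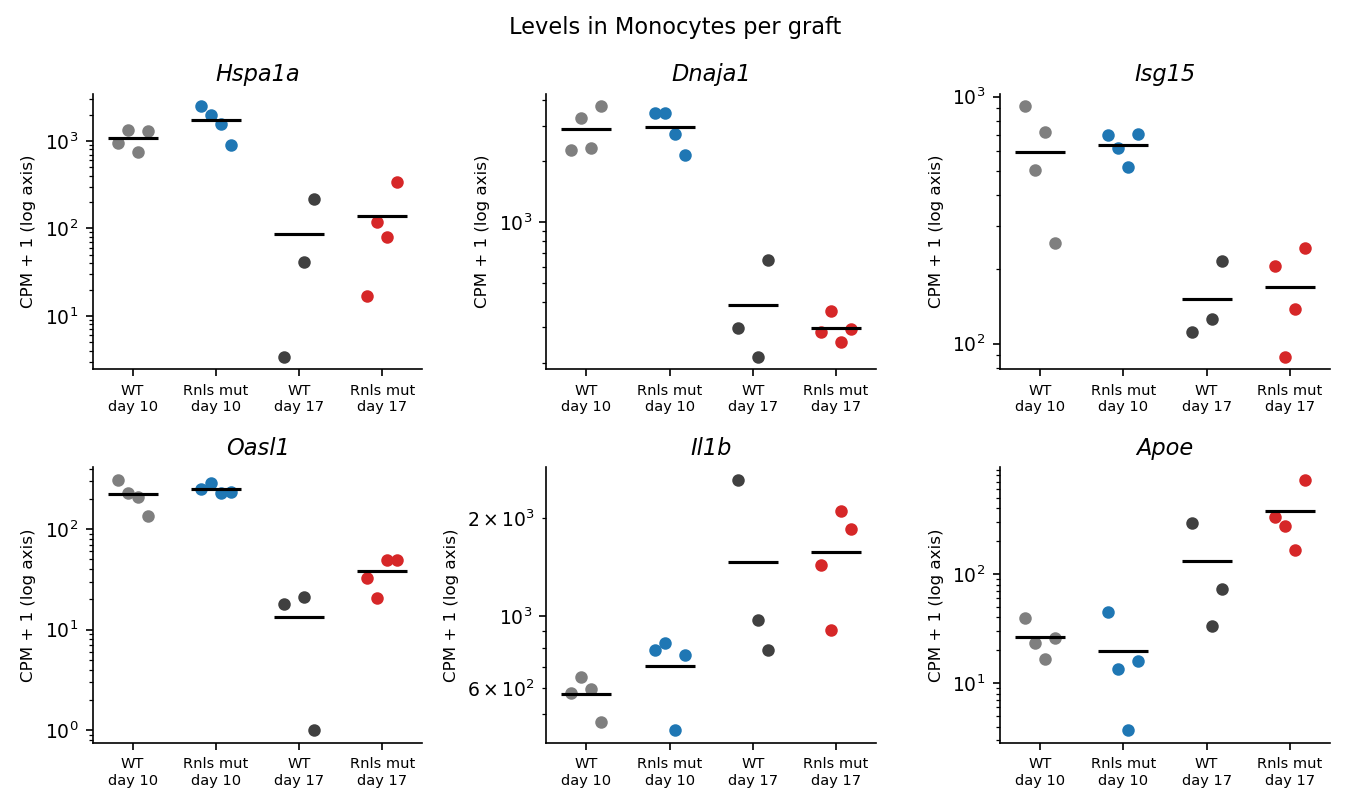
Level of Hspa1a, Dnaja1, Isg15, Oasl1, Il1b and Apoe in Monocytes, in CPM with 1 added, on a log axis. Each point is 1 graft of 10 or more Monocytes (4, 4, 3 and 4 grafts) and each line is the mean CPM of the group with 1 added. Day 17 lies below day 10 without overlap for the first 4 genes, and most grafts of day 17 lie above day 10 for Il1b and Apoe, the latter also higher at day 17 in CD8 T cells and granulocytes.

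Interferon gamma genes fell in part. Of 20 tested, 7 fell and none rose (median -0.43), and in cluster 1 alone 3 fell. The shares of all genes that fell were 8.11% and, in cluster 1 alone, 2.51%. The immunoproteasome subunit Psmb8 (-0.85 ± 0.14, adjusted p = 5.72e-04), the protease inhibitor Serpina3g (-1.41 ± 0.21, adjusted p = 1.99e-04) and the GTPase Gbp7 (-0.94 ± 0.17, adjusted p = 0.00152) were among them. The chemokine Cxcl9 was at 1205, 1636, 2918 and 1189 CPM in the WT grafts of day 10, 1442, 1578, 845 and 1978 in the Rnls mutant grafts of day 10, 724, 834 and 715 in the WT grafts of day 17 and 632, 389, 986 and 146 in the Rnls mutant grafts of day 17. Its grafts overlapped between days, the change was -1.44 ± 0.27, adjusted p = 0.00152, and in cluster 1 alone it was -0.78 ± 0.28, adjusted p = 0.128. Gbp2 (-0.41 ± 0.20, adjusted p = 0.17) and the transcription factor Irf1 (-0.0096 ± 0.15, adjusted p = 0.981) did not pass. Without graft 3 of WT day 17, 10 of the list fell, against 1186 of all 8496 genes.

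Genes that handle lipids went in both directions. Of the 8 tested genes of the lipid handling list 1 rose and 3 fell (median -0.29), against 6.31% and 8.11% of all genes. Apoe, Apoc2 and Cd36 are not counted there. Apoe (chr7:19696109-19699188, minus strand), the apolipoprotein that carries cholesterol out of macrophages, was at 38.2, 22.3, 15.5 and 25.0 CPM in the WT grafts of day 10, 43.9, 12.4, 2.72 and 15.1 in the Rnls mutant grafts of day 10, 291, 32.2 and 71.5 in the WT grafts of day 17 and 332, 272, 166 and 730.2 in the Rnls mutant grafts of day 17. Graft 3 of WT day 17 lay among the grafts of day 10, which reached 43.9 CPM, and every other graft of day 17 lay above them. The log2 fold change was 3.26 ± 0.41, adjusted p = 3.25e-05, with 3.06 ± 0.42, adjusted p = 2.13e-04 in cluster 1 alone and 3.05 ± 0.55, adjusted p = 3.90e-04 in cluster 14 alone in Rnls mutant grafts. Apoe was far lower in Monocytes than in Macrophages, which at day 17 held 1088 to 8675 CPM in WT grafts and 2147 to 10334 CPM in Rnls mutant grafts. Apoe was also higher at day 17 in cells that are not known to make it. Pooled over the cells of each library, in the order WT day 10, Rnls mutant day 10, WT day 17 and Rnls mutant day 17, CD8 T cells held 12.2, 2.57, 57.0 and 213 CPM, granulocytes 13.7, 11.6, 47.5 and 371 CPM and Monocytes 24.4, 17.7, 179 and 314 CPM. In the Rnls mutant library of day 17 granulocytes thus held more Apoe than Monocytes, so the change is not read as one of expression in Monocytes. Apoc2, a neighbor of Apoe that activates lipoprotein lipase, had 3.85 ± 0.53, adjusted p = 9.69e-05, and 2.50, adjusted p = 0.115 without graft 1 of WT day 17. The fatty acid receptor Cd36 (chr5:17781690-17888801, minus strand) was at 130.4, 104, 70.5 and 89.9 CPM in the WT grafts of day 10, 94.7, 81.0, 79.7 and 106 in the Rnls mutant grafts of day 10, 779, 375 and 35.8 in the WT grafts of day 17 and 277, 622, 400.1 and 487 in the Rnls mutant grafts of day 17. Graft 4 of WT day 17, with 10 cells, was the single graft of day 17 below those of day 10, and the change was 2.07 ± 0.28, adjusted p = 6.49e-05, with 1.62 ± 0.26, adjusted p = 8.31e-04 in cluster 1 alone. In CD8 T cells Cd36 was at 0.978, 0.515, 2.78 and 1.05 CPM in the same order of libraries. The member of the lipid handling list that rose was the cholesterol exporter Abca1 (1.26 ± 0.22, adjusted p = 8.00e-04). Among those that fell were the lipoprotein lipase Lpl (-1.37 ± 0.42, adjusted p = 0.0338) and the fatty acid binding protein Fabp5 (-0.76 ± 0.25, adjusted p = 0.0439), and neither passed without graft 1 of WT day 17.

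Further genes that rose included Mef2c, a transcription factor of myeloid cells (29.4 to 46.1 CPM at day 10 and 68.5 to 204 CPM at day 17; 1.77 ± 0.20, adjusted p = 8.08e-06), the Notch coactivator Maml3 (2.18 ± 0.28, adjusted p = 3.59e-05), the phosphatase Ssh2 that acts on cofilin (2.23 ± 0.28, adjusted p = 2.89e-05), Pid1 (1.59 ± 0.17, adjusted p = 2.98e-06), the kinase Sgk1 (1.77 ± 0.23, adjusted p = 4.36e-05), the interferon gamma receptor chain Ifngr1 (1.14 ± 0.15, adjusted p = 5.70e-05) and Fgd4 (2.01 ± 0.28, adjusted p = 1.07e-04). In cluster 1 alone the change was 1.49 ± 0.25, adjusted p = 0.00154 for Mef2c, 1.49 ± 0.28, adjusted p = 0.00398 for Maml3, 1.52 ± 0.34, adjusted p = 0.0145 for Ssh2, 1.61 ± 0.26, adjusted p = 8.95e-04 for Pid1 and 1.41 ± 0.26, adjusted p = 0.00274 for Sgk1. Fgd4 did not pass there (0.92 ± 0.42, adjusted p = 0.248).

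Nonclassical genes, most of which were higher in cluster 14, rose over both clusters. Of the 15 tested, all 15 rose over both clusters (median 1.86), 2 of 12 rose in cluster 1 alone (median 0.57), and without graft 1 of WT day 17, 3 of 15 rose (median 0.64). Among all genes 6.31%, 0.84% and 102 of 8535 rose, in that order. Ace was at 48.0, 15.4, 14.1 and 15.2 CPM in the WT grafts of day 10, 47.9, 29.8, 9.05 and 34.2 in the Rnls mutant grafts of day 10, 250.1, 0 and 71.5 in the WT grafts of day 17 and 150.1, 369, 107 and 316 in the Rnls mutant grafts of day 17, with graft 1 the highest of the WT grafts of day 17. Its change was 2.55 ± 0.46, adjusted p = 0.00122, and 0.93, adjusted p = 0.575 without that graft. Likewise the change was 2.29 ± 0.45, adjusted p = 0.00246 for Adgre4, 2.34 ± 0.46, adjusted p = 0.00254 for the fractalkine receptor Cx3cr1 and 2.70 ± 0.46, adjusted p = 7.39e-04 for the peptidoglycan receptor Pglyrp1, and without that graft it was 0.76, adjusted p = 0.434, 0.72, adjusted p = 0.61 and 0.64, adjusted p = 0.74 in that order. Nr4a1 rose by 1.78 ± 0.29, adjusted p = 4.61e-04 over both clusters, by 1.03 ± 0.27, adjusted p = 0.037 in cluster 1 alone and by 1.12, adjusted p = 0.013 without that graft. Klf2, a transcription factor of quiescent cells, rose over both clusters (1.32 ± 0.21, adjusted p = 4.42e-04) and did not pass in cluster 1 alone (0.72 ± 0.28, adjusted p = 0.172).

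Classical genes did not move as one. Of 13 tested, 4 rose and 2 fell (median -0.043), and in cluster 1 alone 4 rose and none fell. Among all genes 6.31% rose and 8.11% fell, and 0.84% and 2.51% in cluster 1 alone. Ly6c2, whose graft values are given above, changed by -0.91 ± 0.29, adjusted p = 0.0406, and it did not pass in cluster 1 alone (-0.66 ± 0.21, adjusted p = 0.0913) nor without any one of grafts 2 and 4 of Rnls mutant day 10, 1, 2 and 4 of Rnls mutant day 17, 1, 2 and 3 of WT day 10 and 1 of WT day 17 (adjusted p = 0.0547 to 0.0923). Lyz2 did not pass (-0.043 ± 0.15, adjusted p = 0.889), and Ccr2 passed only in cluster 1 alone (0.36 ± 0.24, adjusted p = 0.336 over both clusters, 0.68 ± 0.16, adjusted p = 0.0204 in cluster 1). Fn1, the matrix protein fibronectin, was at 39.2 to 124 CPM at day 10 and 97.4 to 498 CPM at day 17 and rose (1.45 ± 0.24, adjusted p = 6.74e-04; 2.08 ± 0.23, adjusted p = 9.52e-06 in cluster 1). In CD8 T cells Fn1 did not exceed 1.05 CPM in any library. Csf1r rose as well (0.79 ± 0.13, adjusted p = 7.39e-04).

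Of the secreted mediators, Il1b (chr2:129364570-129371139, minus strand), the inflammasome cytokine, was at 579, 649, 594 and 473 CPM in the WT grafts of day 10, 788, 824, 445 and 757 in the Rnls mutant grafts of day 10, 2621, 970.5 and 787 in the WT grafts of day 17 and 1430.2, 904, 2098 and 1849.8 in the Rnls mutant grafts of day 17. Every graft of day 17 except graft 4 of WT lay above every graft of day 10. The log2 fold change was 1.09 ± 0.22, adjusted p = 0.00265, with 1.23 ± 0.19, adjusted p = 5.76e-04 in cluster 1 alone, 0.065 ± 0.21, adjusted p = 0.896 in cluster 14 alone in Rnls mutant grafts, and 0.68, adjusted p = 0.0201 without graft 1 of WT day 17. CD8 T cells held 6.30 to 12.7 CPM of Il1b in the 4 libraries. In cluster 14 Il1b was at 1389.7, 1214 and 1758 CPM in 3 Rnls mutant grafts of day 10 and at 2071, 926, 2039 and 2215 in 4 of day 17, which overlapped. Its natural antagonist Il1rn fell (-1.37 ± 0.28, adjusted p = 0.00294). Tgfb1 rose over both clusters (0.71 ± 0.16, adjusted p = 0.00509), but did not pass in cluster 1 alone (0.54 ± 0.18, adjusted p = 0.107) or without graft 1 of WT day 17 (0.50, adjusted p = 0.0709). Of 13 cytokine and inflammasome genes tested, these 3 were the ones that passed, and without graft 3 of WT day 17, 2 rose and 3 fell. By comparison 6.31% of all genes rose and 8.11% fell, and 781 and 1186 of 8496 without that graft.

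Chemokines moved in both directions, with 3 of 12 tested higher and 1 lower, and 3 higher and 4 lower without graft 3 of WT day 17. All genes stood at 6.31% higher and 8.11% lower, and at 781 and 1186 of 8496 without that graft. The neutrophil attractant Cxcl2 (1.24 ± 0.32, adjusted p = 0.013) and Ccl8 (1.29 ± 0.24, adjusted p = 0.00152) rose, and Ccl2, the ligand of Ccr2, fell (-1.28 ± 0.23, adjusted p = 9.87e-04). Ccl8 was at 136, 95.6, 199 and 458 CPM in Monocytes and 104.9, 44.0, 111 and 654 CPM in CD8 T cells of the same libraries (WT day 10, Rnls mutant day 10, WT day 17 and Rnls mutant day 17), more in CD8 T cells in the last, so its rise is not read as one of expression in Monocytes. The call of Ccl3 (1.99 ± 0.65, adjusted p = 0.0444) depended on graft 1 of WT day 17, without which it was -0.26, adjusted p = 0.933, and it was also lost without any one WT graft of day 10, graft 2, 3 or 4 of Rnls mutant day 10 or graft 1 or 4 of Rnls mutant day 17 (adjusted p = 0.0502 to 0.495). Of 12 checkpoint and costimulatory ligands tested, 3 fell, namely Lgals9, which codes for galectin-9 (-1.50 ± 0.25, adjusted p = 7.04e-04), Pdcd1lg2, which codes for PD-L2 (-1.47 ± 0.25, adjusted p = 8.42e-04), and Cd40 (-0.75 ± 0.25, adjusted p = 0.0462), and Sirpa rose (0.50 ± 0.14, adjusted p = 0.0194; 0.39, adjusted p = 0.124 without graft 1 of WT day 17). These counts stand beside 8.11% of all genes that fell and 6.31% that rose. Cd274 was at 657, 530.1, 709 and 428 CPM in the WT grafts of day 10, 706, 731, 462 and 769 in the Rnls mutant grafts of day 10, 743, 532 and 518 in the WT grafts of day 17 and 553, 350.0, 693 and 511 in the Rnls mutant grafts of day 17, overlapping between days, and did not pass (-0.30 ± 0.17, adjusted p = 0.226).

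Among MHC class II genes, H2-Aa (-0.37 ± 0.19, adjusted p = 0.197) and Cd74 (-0.45 ± 0.17, adjusted p = 0.0832) did not pass, and 1 of 7 tested fell, H2-DMb1 (-0.73 ± 0.24, adjusted p = 0.0434), a call that was lost without any one of the grafts except graft 1 of Rnls mutant day 10, graft 3 of Rnls mutant day 17, graft 1 of WT day 10 and graft 3 of WT day 17 (adjusted p = 0.0536 to 0.108). Without graft 3 of WT day 17, 6 of 7 fell, with -0.70, adjusted p = 0.00134 for H2-Aa and -0.81, adjusted p = 2.13e-05 for Cd74. Of all genes 8.11% fell, and 1186 of 8496 without that graft. The median change of the list was -0.49 over both clusters and -0.26 in cluster 1 alone, where none of its genes passed (-0.19 ± 0.19 for H2-Aa in cluster 1).

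Immediate early genes split, with 3 of 15 higher and 4 lower, of which Hspa1a and Hspa1b are named above. Beside this and the other lists of this paragraph stand 6.31% of all genes that rose and 8.11% that fell. Counts of 1 or 2 members are therefore not read as results about a list. The mRNA decay factor Zfp36 (1.08 ± 0.17, adjusted p = 3.77e-04) and the phosphatase Dusp1 (0.82 ± 0.17, adjusted p = 0.00294) rose, and the AP-1 subunit Jund fell (-0.67 ± 0.13, adjusted p = 0.00262). Of 21 glycolysis and hypoxia genes, 5 fell and none rose (median -0.27), among them the glucose transporter Slc2a1 (-1.17 ± 0.30, adjusted p = 0.0135), while Gapdh (-0.23 ± 0.23, adjusted p = 0.542) did not pass. In cluster 1 alone none of that list passed, without graft 1 of WT day 17 2 fell and without graft 3 17 fell. Over all genes, 344 of 8535 fell without graft 1, and 781 of 8496 rose and 1186 fell without graft 3. Of 8 genes of arginine metabolism and alternative activation 1 rose and 2 fell, with the arginine transporter Slc7a2 at -1.95 ± 0.41, adjusted p = 0.00354. Of 10 adhesion genes 3 rose, including the chemokine receptor Cxcr4 (1.59 ± 0.32, adjusted p = 0.003), and none did without graft 1 of WT day 17, where Cxcr4 was at 1.24, adjusted p = 0.0783. Without graft 3 of WT day 17, 5 adhesion genes rose and 3 fell, and of the Fc receptor and phagocytosis genes 2 rose and 3 fell. Of 9 Fc receptor and phagocytosis genes 1 rose, Fcgr4 (1.17 ± 0.29, adjusted p = 0.00946; 0.63, adjusted p = 0.193 without that graft), of 15 macrophage genes 2 rose and 1 fell (median 0.18; without graft 3 of WT day 17, 1 rose and 4 fell of 16, median -0.82), and of 7 cell cycle genes 1 fell. The single lymphocyte marker that could be tested fell: Gzma, a granule protease of cytotoxic lymphocytes, had 21, 19, 27 and 36 UMIs in the WT grafts of day 10, 35, 21, 20 and 22 in the Rnls mutant grafts of day 10, 3, 0 and 0 in the WT grafts of day 17 and 0 in every Rnls mutant graft of day 17, and in granulocytes it was at 54.7, 38.6, 6.79 and 0 CPM (WT day 10, Rnls mutant day 10, WT day 17 and Rnls mutant day 17). The part of such RNA in the other differences was not tested. Leaving out cells with 2 or more lymphocyte UMIs changed none of the 72 day calls examined for this. That step removed only 1.62% of Monocytes, so it could hardly change a call and does not answer the question. Of 2 granulocyte and 2 dendritic markers tested none passed, and no beta cell or erythroid marker had enough UMIs to be tested. In cluster 1 alone Apoc2, Lpl, Fabp5, Ccl3, Cd40, Sirpa, Cxcr4 and Fcgr4 did not pass (adjusted p = 0.0678 to 0.997), with 0.019 ± 0.81 for Ccl3.

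**Figure D4:**
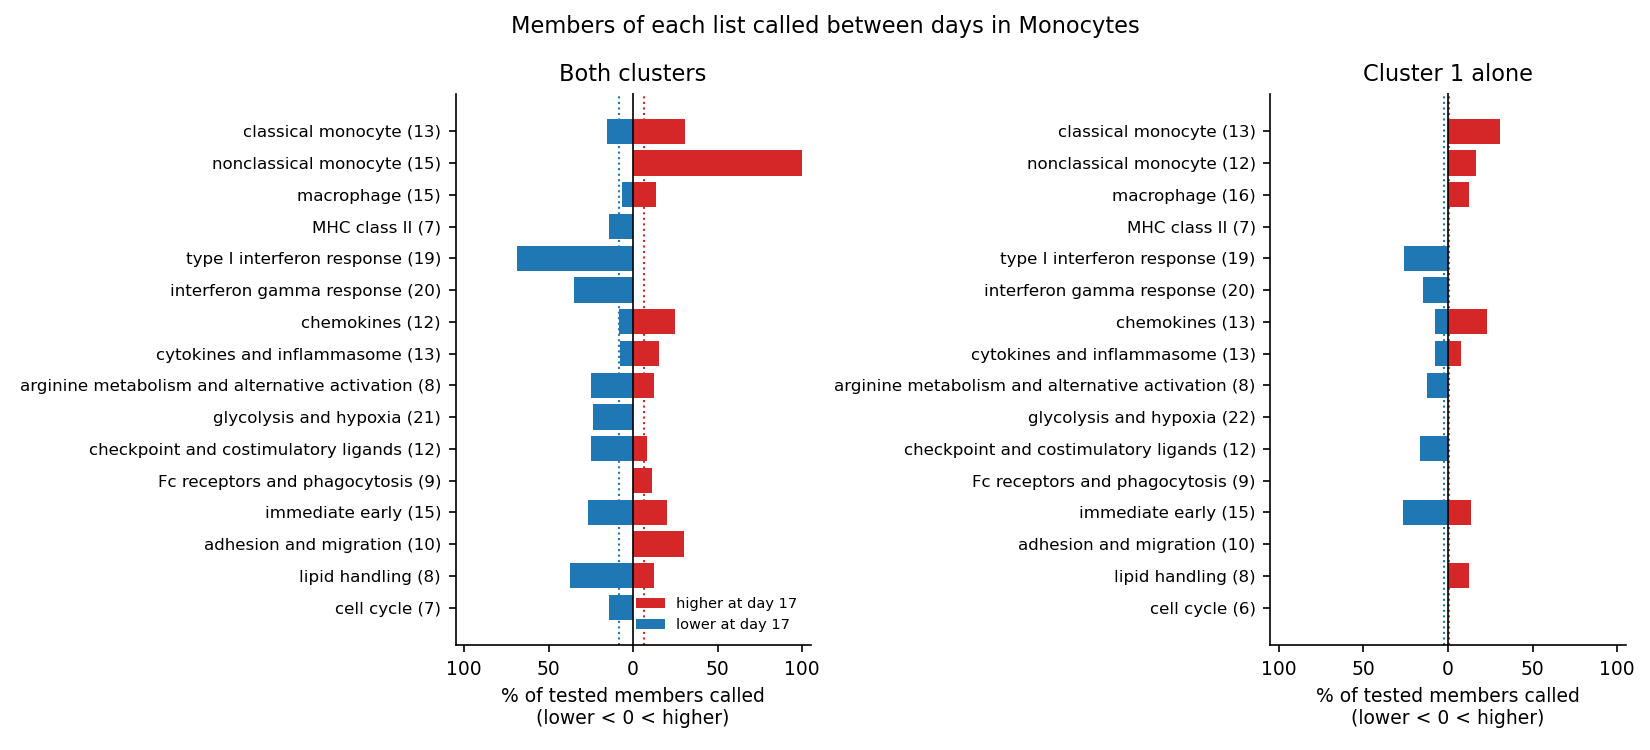
Percent of the tested members of each gene list that were higher (to the right) or lower (to the left) at day 17 at an adjusted p of 0.05, for Monocytes of both clusters and for cluster 1 alone, with the number tested in brackets and dotted lines at the percent over all genes. All 15 nonclassical genes are higher over both clusters and 2 of 12 in cluster 1 alone, and 13 of 19 type I interferon genes are lower over both clusters.

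Whether Monocytes changed as Macrophages did was tested as the difference of the changes, in a single edgeR model with both cell types summed per graft and the graft as a block. Of 9595 genes, 657 (6.85%) changed differently between days, 225 more toward higher in Monocytes and 432 more toward lower (median difference -0.156). Both cell types came from the same grafts and libraries. Monocytes of both clusters were summed. Cluster 14 averaged 17.7% of the Monocytes in WT day 10, 21.9% in Rnls mutant day 10, 42.1% in WT day 17 and 55.2% in Rnls mutant day 17. The model was not fitted for cluster 1 alone, so a changed mix of clusters and a change within a cluster cannot be told apart here. Il1b rose in Monocytes and fell in Macrophages (-1.60 ± 0.23, adjusted p = 2.82e-05), where it was at 1405, 1533, 935 and 665 CPM in the WT grafts of day 10, 2526, 922, 1393 and 2105 in the Rnls mutant grafts of day 10, 629, 396, 650.1 and 794 in the WT grafts of day 17 and 447, 241, 628 and 389.6 in the Rnls mutant grafts of day 17. The difference was 2.36 ± 0.26, adjusted p = 7.13e-06. In Macrophages every graft of day 17 except graft 4 of WT lay below every graft of day 10, and at day 17 every Monocyte value but that of WT graft 4 lay above every Macrophage value.

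Other genes with a more positive change in Monocytes were Sgk1 (difference 2.04 ± 0.28, adjusted p = 7.86e-05; Macrophages -0.58 ± 0.22), Cxcl2 (1.53 ± 0.34, adjusted p = 0.00513; -0.26 ± 0.20), Nr4a1 (2.05 ± 0.34, adjusted p = 3.41e-04; -0.43 ± 0.20), Klf2 (1.39 ± 0.33, adjusted p = 0.00821; -0.13 ± 0.23), Ms4a4c of a family of membrane proteins (1.70 ± 0.19, adjusted p = 7.13e-06; -2.23 ± 0.26), Plac8 (1.16 ± 0.16, adjusted p = 7.86e-05; -1.63 ± 0.24) and the inflammasome sensor Nlrp3 (1.04 ± 0.21, adjusted p = 0.00199; -0.80 ± 0.15). For Plac8 and Nlrp3 the change within Monocytes itself was -0.32 ± 0.22, adjusted p = 0.35 and 0.39 ± 0.16, adjusted p = 0.104. With a more negative change stood Lyz2 (-0.81 ± 0.15, adjusted p = 0.00102; Macrophages 0.50 ± 0.15), Fn1 (-1.89 ± 0.50, adjusted p = 0.0185; 3.03 ± 0.58), which rose in both, and Lpl, the lipoprotein lipase (-1.62 ± 0.35, adjusted p = 0.00414; 0.26 ± 0.37). The call of Fn1 was lost without graft 1, 2 or 4 of Rnls mutant day 17 or graft 4 of WT day 17 (adjusted p = 0.0541 to 0.0626).

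Hspa1a, Hsph1, Oasl1 and Isg15 fell in both cell types. Hspa1a changed by -2.78 ± 0.43 in Macrophages, less than in Monocytes (difference -1.43 ± 0.28, adjusted p = 0.00162), as did Oasl1 (-1.86 ± 0.18; difference -1.59 ± 0.29, adjusted p = 0.00102). Isg15 fell more in Macrophages (-3.51 ± 0.28; difference 1.27 ± 0.22, adjusted p = 6.55e-04). For Hsph1 the changes were -4.17 ± 0.34 in Monocytes and -4.15 ± 0.27 in Macrophages, with a difference of 0.061 ± 0.48, adjusted p = 0.981. H2-Aa had a more negative change in Monocytes than in Macrophages (-0.83 ± 0.21, adjusted p = 0.0145; Macrophages 0.26 ± 0.087), a call lost without graft 2 or 4 of Rnls mutant day 17 or graft 1 or 4 of WT day 17 (adjusted p = 0.0525 to 0.103) and with DESeq2 (-0.68, adjusted p = 0.113).

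**Figure D5:**
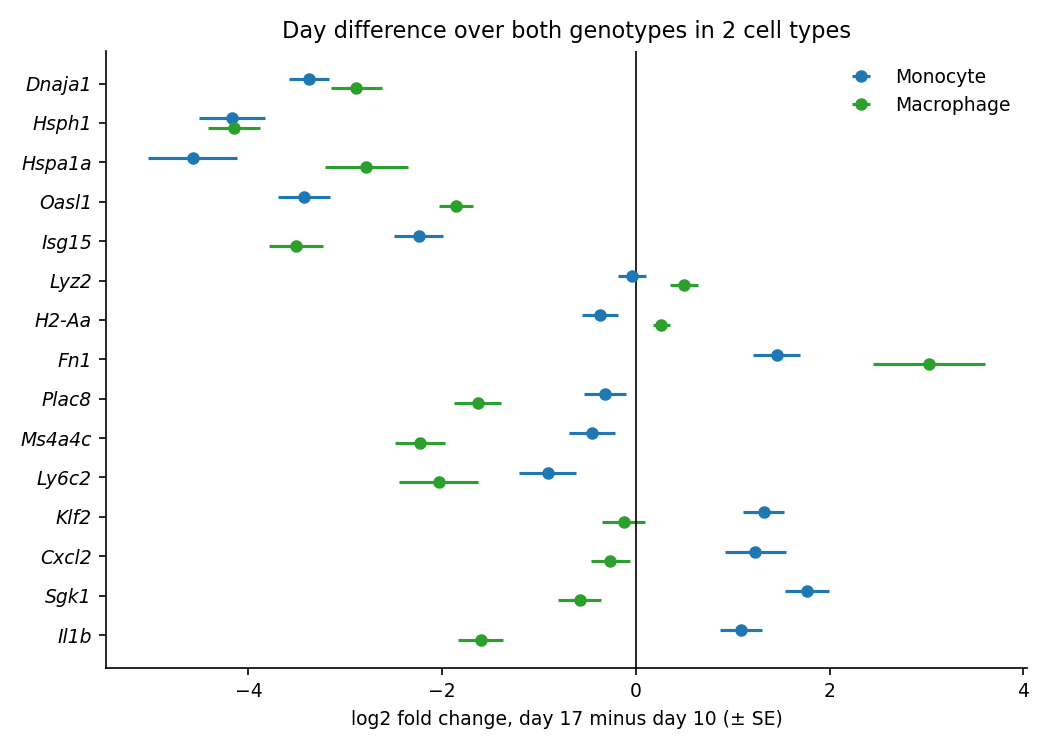
Log2 fold change from day 10 to day 17 with its standard error for 15 genes in Monocytes and in Macrophages, over both genotypes. Monocytes of both clusters are summed, so their mix enters the change. Il1b and Sgk1 point up in Monocytes and down in Macrophages, Hsph1 overlaps between the cell types, and Fn1 rises in both and more in Macrophages.

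Between Monocytes of Rnls mutant and WT grafts no gene passed over both clusters. Of 8092 genes, 0 (0.0%) had an adjusted p under 0.05 in edgeR's test at day 10, 0 (0.0%) at day 17 and 0 (0.0%) over both days, with 199, 410 and 329 genes at an unadjusted p under 0.05 and 2, 0 and 0 calls by DESeq2. For the difference of the genotype effect between days edgeR called 0 genes, with 408 at an unadjusted p under 0.05, and DESeq2 called 3. On simulated counts of these grafts the test recovered 136 of 195 genes changed by 1.5 on the log2 scale in the comparison of days, whereas smaller changes and the comparison of genotypes were not simulated with changed genes.

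The genes with the smallest p are given as values. At day 10 the lincRNA Gm10076 (chr14:105681828-105682211, plus strand) was at 490.1, 516, 513 and 544 CPM in WT grafts and 260.3, 278, 316 and 323 in Rnls mutant grafts. The genotypes did not overlap, and the log2 fold change was -0.84 ± 0.17, adjusted p = 0.46, while in cluster 1 alone it passed (-0.83 ± 0.13, adjusted p = 0.0178). In Macrophages of these grafts it was at 401, 454, 431 and 488 CPM against 216, 237, 230.4 and 263 and passed (-0.94 ± 0.12, adjusted p = 0.00243), whereas at day 17 Monocytes held 123, 193 and 197 CPM in WT and 198, 272, 244 and 195 in Rnls mutant grafts, which overlapped. Osm (chr11:4236420-4241026, plus strand), which codes for oncostatin M, a cytokine of the interleukin 6 family, was at 40.2, 42.3, 52.9 and 43.8 CPM in WT and 86.8, 89.3, 84.2 and 84.4 in Rnls mutant grafts of day 10. These did not overlap either, but the change did not pass (0.91 ± 0.25, adjusted p = 1), and at day 17 the values were 45.7, 44.3 and 89.4 and 39.5, 38.9, 176 and 0 CPM, with overlap.

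At day 17 Hmox1 (chr8:75093621-75100589, plus strand), the heme oxygenase of iron handling macrophages, was at 481, 467 and 71.5 CPM in WT and 86.9, 77.8, 78.1 and 48.7 in Rnls mutant grafts. WT graft 4 lay within the Rnls mutant range, and the change did not pass (-2.35 ± 0.49, adjusted p = 0.645). It passed without that graft (-2.71, adjusted p = 0.0116). Slpi, a protease inhibitor of myeloid cells, had -2.05 ± 0.48, adjusted p = 0.797, and the splicing factor gene Srek1 -2.66 ± 0.58, adjusted p = 0.645. Gpr171, a receptor gene of lymphoid and myeloid cells, had 5, 2 and 0 UMIs in the WT and 7, 4, 7 and 2 in the Rnls mutant grafts of day 17, too few for a level. Over both days the changes with the smallest p were 1.42 ± 0.33, adjusted p = 0.854 for Gpr171, -1.28 ± 0.32, adjusted p = 0.854 for Srek1 and -0.50 ± 0.12, adjusted p = 0.854 for the ubiquitin gene Ubb. Among checkpoint and regulatory genes, the change over both days was -0.029 ± 0.16, adjusted p = 1 for Cd274 and 0.32 ± 0.16, adjusted p = 1 for Tgfb1, and for the markers -0.49 ± 0.15, adjusted p = 0.951 for Lyz2, -0.38 ± 0.29, adjusted p = 1 for Ly6c2 and -0.42 ± 0.24, adjusted p = 1 for Ccr2. Since no gene passed between genotypes over both clusters, no member of a gene list could.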

How the data were processed

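Droplet single-cell RNA sequencing (10x Genomics, 3′ chemistry) was run on living CD45+ cells sorted from 16 NIT-1 grafts. The authors deposited whole-number UMI counts per gene and cell, with a cluster, a cell type, a library and a graft hashtag for every cell. The submitters' processing notes name Cell Ranger and mm10. The filters on cells, the hashtag assignment and the treatment of doublets are not given in the sources used here. No doublet caller was run, and the hashtag libraries were not used.

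UMI counts of the annotated Monocytes were summed per graft, and grafts with 10 or more cells were kept. The quasi-likelihood functions of edgeR 4.0.16 were applied in R 4.3.3, after filterByExpr and TMM scaling, with the 4 groups in 1 fit and a Benjamini-Hochberg adjusted p of 0.05. WT and Rnls mutant grafts were paired within mice, but the sources used here do not say which hashtags shared a mouse, so no block was used and the tests of genotype leave the pairing out. Changes in Monocytes and Macrophages were compared in 1 edgeR fit with the graft as a block. Per-graft log2 ratios used a pseudocount of 5 CPM and genes at 50 CPM or more in either class, while members of gene lists were counted at any level. Shares were compared with two-sided exact permutation tests written in Python 3.11.15 with NumPy 2.4.6 and pandas 2.3.3, and figures were drawn with Matplotlib 3.10.9. Binomial intervals are exact, at 95%, and cover counting error only. P-values measure the spread between grafts of 1 library per group.

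Genes were named by a rule: the 3 markers, up to 10 genes per direction and contrast with the smallest p (3 where none passed), up to 4 members of each gene list by level and up to 4 more by p, and 15 per direction in the descriptions. Dnajb1, Hspa8 and the heat shock gene set were chosen after their values were seen. The Monocytes, the rule and the gene lists, written by hand, were chosen with earlier results of these data known. Alternatives were DESeq2 1.42.0, upper quartile normalization, no filter on low counts, other minimum cells per graft, 2 groups fitted alone, the hashtag number as a block, each cluster alone, cells without lymphocyte UMIs, other denominators and pseudocounts, and each graft left out in turn. Counts of list members without graft 1 or 3 of WT day 17 were added after seeing the data. The edgeR fit was tested on simulated counts: of 7944 genes tested, 136 of 195 changed by 1.5 on the log2 scale between days were recovered (69.7%), with 8 false calls. Gene positions are from GENCODE vM21 (GRCm38), and promoter windows, 250 bases before the start site, from RefSeq GRCm38.p6. For genes abundant in Macrophages, the pooled level in CD8 T cells and granulocytes was added, after the values were seen, as a gauge of free RNA in the droplets. Some results of single genes are not reported here.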

Additional observations from a re-analysis of the deposited data

Results flagged for a closer look

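In 4 of 79 groups of 4 grafts that were checked, 1 graft stood far from the other 3, which is the number that chance alone gives at 1 in 20. Graft 1 of WT day 17 had a share of Monocytes of 10.4% of CD45+ cells, against 2.00% to 2.83% in the other grafts of that group, and 34.7 Monocytes per 100 Macrophages, against 2.71 to 6.54. Graft 1 of WT day 10 had a share of cluster 14 of 35.0% of its Monocytes, against 9.75% to 13.5%, and an Ace level of 48.0 CPM, against 14.1 to 15.4 CPM.

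The change from day 10 to day 17 differed between Monocytes and Macrophages by the edgeR test of the difference, at an adjusted p under 0.05, for 657 of 9595 genes (6.85%). The 24 genes given here were picked by hand and all of them passed, so their number is no result. Hsph1, given above, did not pass. Both clusters of Monocytes were summed, and the part that their changed mix had in these differences was not tested. More positive in Monocytes, as a log2 difference, were Ccl3 (2.74), Il1b (2.36), Maml3 (2.05), Nr4a1 (2.05), Sgk1 (2.04), Fcgr4 (1.84), Ms4a4c (1.70), Cxcl2 (1.53), Klf2 (1.39), Isg15 (1.27), Plac8 (1.16), Nlrp3 (1.04) and Ly6c2 (0.79). More negative were Fn1 (-1.89), Lpl (-1.62), Hspa1b (-1.59), Oasl1 (-1.59), Hspa1a (-1.43), Ciita (-1.18), H2-Aa (-0.83), H2-Ab1 (-0.81), Lyz2 (-0.81), Hspa5 (-0.75) and Cd74 (-0.72). With 1 graft left out at a time, 17 of the 24 differences passed every time. The call of Ccl3 was lost without graft 1 of WT day 17 (0.96, adjusted p = 0.746) or graft 4 of Rnls mutant day 17 (1.97, adjusted p = 0.149), and that of Ciita without graft 1 of WT day 17 (-0.93, adjusted p = 0.0515). The calls of H2-Aa, H2-Ab1 and Cd74 were lost without that graft, without graft 4 of WT day 17 or without graft 2 or 4 of Rnls mutant day 17 (adjusted p = 0.0525 to 0.132), that of Cd74 also without graft 3 of Rnls mutant day 10 or graft 2 of WT day 10 (0.0529 and 0.0534). The call of Fn1 was lost without graft 1, 2 or 4 of Rnls mutant day 17 or graft 4 of WT day 17 (0.0541 to 0.0626). The call of Ly6c2 was lost without graft 1 or 3 of Rnls mutant day 10, 2 or 3 of Rnls mutant day 17, 1 or 2 of WT day 10 or 4 of WT day 17 (0.0533 to 0.137).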

How the results depend on the processing

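Shares of Monocytes fell between days under every denominator and with each graft left out (-12.4 to -10.4 percentage points, largest exact permutation p = 0.000816), and the genotype difference of the shares did not pass under any of them. Counts of genes moved more. Over both genotypes the day count of 1167 genes was 271 in cluster 1 alone and 446 to 1967 with 1 graft left out, lowest without graft 1 and highest without graft 3 of WT day 17. In WT grafts the 311 genes became 639 with no filter on low counts, 22 with 2 groups fitted alone, 49 in cluster 1 alone and 36 to 1299 with 1 graft left out. In Rnls mutant grafts the 258 became 437 with DESeq2, 698 with no filter, 125 with at least 20 cells per graft, 530 with 2 groups fitted alone, 76 in cluster 1 alone and 83 to 602 with 1 graft left out, lowest without graft 2 of Rnls mutant day 17. In cluster 14 alone, 275 of 2728 genes passed in Rnls mutant grafts, 108 higher and 167 lower at day 17. Genotype counts of 0 became 2 (DESeq2), 19 (no filter), 2 (2 groups fitted alone) and 1 (cluster 1 alone) at day 10, 20 (no filter) at day 17 and 17 (no filter) over both days, and 0 to 1, 0 to 3 and 0 to 2 in that order with 1 graft left out. The difference of genotype effects between days gave 3 genes with DESeq2, 9 with no filter and 0 with 1 graft left out. The day difference of Monocytes minus Macrophages gave 326 to 1013 genes with 1 graft left out, and the genotype difference of the same kind 2 with no filter and 0 to 11 with 1 graft left out. Direction turned for Lyz2, which never passed (0.028 with DESeq2, 0.16 in cluster 1 alone, -0.23 to 0.038 with 1 graft left out), for Gapdh (0.069 in cluster 1 alone), and without graft 1 of WT day 17 for Ccl3 (-0.26, up to 2.25) and Ear2 (-0.55, up to 1.61). Of 72 single genes called between days, 66 kept their call with DESeq2 and with at least 20 cells per graft, 46 in cluster 1 alone, and all 72 with upper quartile normalization and without cells with lymphocyte UMIs, while 23 lost it without at least 1 graft. The cause of these shifts was not tested.

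With the hashtag number as a replicate block within each day, 0 genes passed at day 10, 0 at day 17, 0 over both days and 0 for their difference, and no call changed. Of Osm the blocked change was 0.91 at day 10 and of Hmox1 -2.38 at day 17. Same-numbered grafts did not deviate together in general (r = 0.604, 0.025, -0.313 and -0.248 at day 10 over 2000 genes, and -0.122, 0.326 and 0.0047 at day 17), and which grafts shared a mouse is not known. Grafts of day 17 held 10 to 91 Monocytes, which limits the precision of their values, and recovery of changes under 1.5 on the log2 scale was not simulated.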
